A study of Mus musculus with 12 samples.

Results

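Zfp36l1-deficient marginal zone (MZ) B cells were compared with control MZ B cells by RNA sequencing, gene by gene across the whole transcriptome. The comparison used 8 of the series' 12 libraries, chosen by the labelled cell type and genotype. The 4 deficient libraries (replicates 1, 2, 7 and 8) have the genotype Zfp36l1fl/flERT2cre/+, that is, floxed Zfp36l1 with 1 copy of ERT2cre, a Cre recombinase fused to a modified oestrogen receptor. The 4 control libraries (replicates 3, 4, 5 and 6) have the genotype ERT2cre/ERT2cre, that is, 2 copies of ERT2cre. The floxed allele and the number of cre copies therefore differ together, and their parts in a difference cannot be told apart. All 8 samples share spleen as the source, the strain label Zfp36l1tm1.1Tnr, magnetic enrichment of B cells, and a sort for cells with B220, CD93 and high CD21 but no CD23. They also share 5 ng of input RNA and a SMARTer library kit read as 100 bp pairs. The sources used here do not give the age of the mice, the locus of ERT2cre, the agent that activated it or the cells in which it was active. Nor is it stated if each replicate is its own animal, so a p-value here measures only how far these libraries spread, and that spread may be technical.

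MZ B cells lie at the border of the splenic follicle, where blood passes, and give fast antibody responses to blood-borne antigens. Their formation depends on the receptor Notch2, and their position depends on sphingosine 1-phosphate receptors, chemokine receptors and integrins. Zfp36l1 belongs with Zfp36 and Zfp36l2 to a family of zinc finger proteins that bind AU-rich elements in the 3′ untranslated region (UTR) of mRNAs and recruit the CCR4-NOT deadenylase, which shortens the poly(A) tail and leads to decay. Klf2, a transcription factor that holds back MZ B cell formation, and Irf8, a transcription factor of B cell development, are among the mRNAs described as targets of this family.

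The core of such an element is the heptamer TATTTAT, with U in place of T in the mRNA. Shown are 30 bases around the first heptamer of 8 genes called changed, because these carry the letters the family is known to bind. They were read from GENCODE M21 transcripts, build GRCm38, 5′ to 3′ on the strand of the mRNA, with the heptamers in capitals. The first 5 genes rose in deficient cells. They lie at chr8:72320988-72321017 (Klf2, plus strand), chr17:84184913-84184942 (Zfp36l2, minus), chr17:29495691-29495720 (Pim1, plus), chr17:26506158-26506187 (Dusp1, minus) and chr4:136193345-136193374 (E2f2, plus). The other 3 fell, at chr12:80108421-80108450 (Zfp36l1, minus), chr11:104668683-104668712 (Itgb3, plus) and chr5:97884742-97884771 (Antxr2, minus).
Klf2: aaacagactgcTATTTATtggaccttagga
Zfp36l2: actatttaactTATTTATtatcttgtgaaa
Pim1: taatgTATTTATTTATTTATTTATttggtt
Dusp1: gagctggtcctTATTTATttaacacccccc
E2f2: taacgcctttgTATTTATttctagttcaga
Zfp36l1: ttatcaaaacgTATTTATtgccaaactatg
Itgb3: ttgcattattaTATTTATaattttgtatga
Antxr2: ttgctcaacctTATTTATatcactgactgg
The Pim1 window holds 4 overlapping heptamers. Zfp36l2, Zfp36l1 and Dusp1 each carry 3 separate ones in their longest annotated 3′ UTR, Antxr2 carries 2, and the other 3 genes carry 1. A match is a description of the letters and not a measured binding site, and the heptamer stood in rising and in falling genes.

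Depth was 28938453 to 39659730 counts per library. Levels are given as CPM, the counts of a gene scaled to a fixed total per library with TMM factors, always in the order of replicates 1, 2, 7 and 8 for deficient cells and 3, 4, 5 and 6 for controls. Zfp36l1 stood at 23.5, 33.97, 30.3 and 40.3 CPM in deficient cells and at 126, 119, 125 and 136 in controls. The groups were far apart, and the deficient mean was 0.253 of the control mean (log2 −1.98, SE 0.12, edgeR adjusted p = 4.18e-07). Here and below, log2 is the fitted log2 difference of deficient over control cells and SE its standard error. In bulk samples, fewer cells of a type and less RNA per cell cannot be told apart. Opposite-strand exons cover 55.9% of the exon bases of Zfp36l1, and the sources used here do not give the part of the gene that the floxed allele removes. Of the MZ markers, Cr2, which encodes CD21, stood at 3411 to 3924 CPM in deficient cells and 4104 to 4826 in controls, and S1pr3, a receptor typical of MZ B cells, at 513 to 595 and 556 to 674. Fcer2a, which encodes CD23, was present in all libraries although the gate is for cells without CD23, at 94.6 to 175 CPM in deficient cells and 75.1 to 184 in controls. Cd93 went against the labelled gate for CD93, since its mRNA stood at 0.187 to 1.67 CPM in deficient cells and 0.496 to 1.14 in controls.

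A second check of the genotypes came from Gt(ROSA)26Sor, a non-coding gene on chromosome 6 into which transgenes are often placed. It stood at 20.8, 19.1, 15.3 and 19.5 CPM in deficient cells and 0.909, 0.350, 0.687 and 0.550 in controls (log2 4.88, SE 0.21, edgeR adjusted p = 6.97e-09). All deficient libraries were high and all control libraries near 0, so this locus separates the genotypes, but the labels do not say that ERT2cre lies there. Markers of T cells, macrophages, red cells and platelets were low in both groups. The 14 T cell markers summed to between 49.4 and 58.6 CPM in deficient libraries and between 48.7 and 57.0 in controls, with Cd3e at 0 to 0.0298 CPM in deficient libraries and 0 in all controls. The 16 macrophage and monocyte markers summed to 46.7 to 59.6 and 43.7 to 52.0 CPM. The 9 erythroid markers matched summed to 8.60 to 28.2 and 1.74 to 12.6 CPM, and the 9 platelet markers to 15.2 to 24.7 and 22.2 to 30.4. All 9 platelet markers had a negative log2 difference (median −0.44), and 0 were called. Markers of plasma cells summed to 184 to 212 CPM in deficient cells and 253 to 278 in controls. Those of germinal centre B cells summed to 37.2 to 39.5 and 42.3 to 46.8 CPM. For transitional B cells the sums were 541 to 638 and 420.0 to 527 CPM. Of these, Cd24a alone gave 512 to 603 CPM in deficient and 386 to 486 in control libraries. Cd24a kept its call in only 2 of the 8 fits that left out 1 library. The sums for NK cells (21.4 to 28.2 and 19.2 to 25.3 CPM), dendritic cells (53.1 to 80.7 and 48.7 to 60.7) and neutrophils (0.281 to 0.585 and 0.233 to 0.468) overlapped. Among the markers of other cells Cd8a (log2 2.04, SE 0.42) and Adgre1 (log2 1.37, SE 0.28) rose whichever library was left out, from control means of 0.512 and 1.86 CPM, while Tcf7 (log2 2.46, SE 0.53) was not called without control replicate 3 or 4. The haemoglobin gene Hbb-bt (log2 1.44, SE 0.37) was called with all libraries and in the fit that dropped control replicate 5, in which 4 erythroid markers rose, and in no other fit that dropped a library. The part of such cells in the results below was not tested.

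Of 13987 genes tested, 526 were called changed at an adjusted p under 0.05 (edgeR quasi-likelihood, Benjamini-Hochberg), which is 3.76% of those tested. In deficient cells 322 genes were higher (2.3%) and 204 lower (1.46%). The groups did not overlap in 311 of the 322 and 202 of the 204, against 12.4% of all tested genes. More than 2-fold, 81 genes rose and 17 fell. The median log2 difference was 0.56 among the higher and −0.44 among the lower genes, but 0.38 and −0.37 among genes with a mean of at least 6 on the log2 CPM scale. Of genes at that level 5.14% were called, against 2.49% of those under 3, where the median SE was 0.30 instead of 0.08. The first principal component (29.0% of the variance) separated the groups, and the second (18.9%) set deficient replicate 1 and control replicates 5 and 6 apart from the other 5 libraries.

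**Figure D1:**
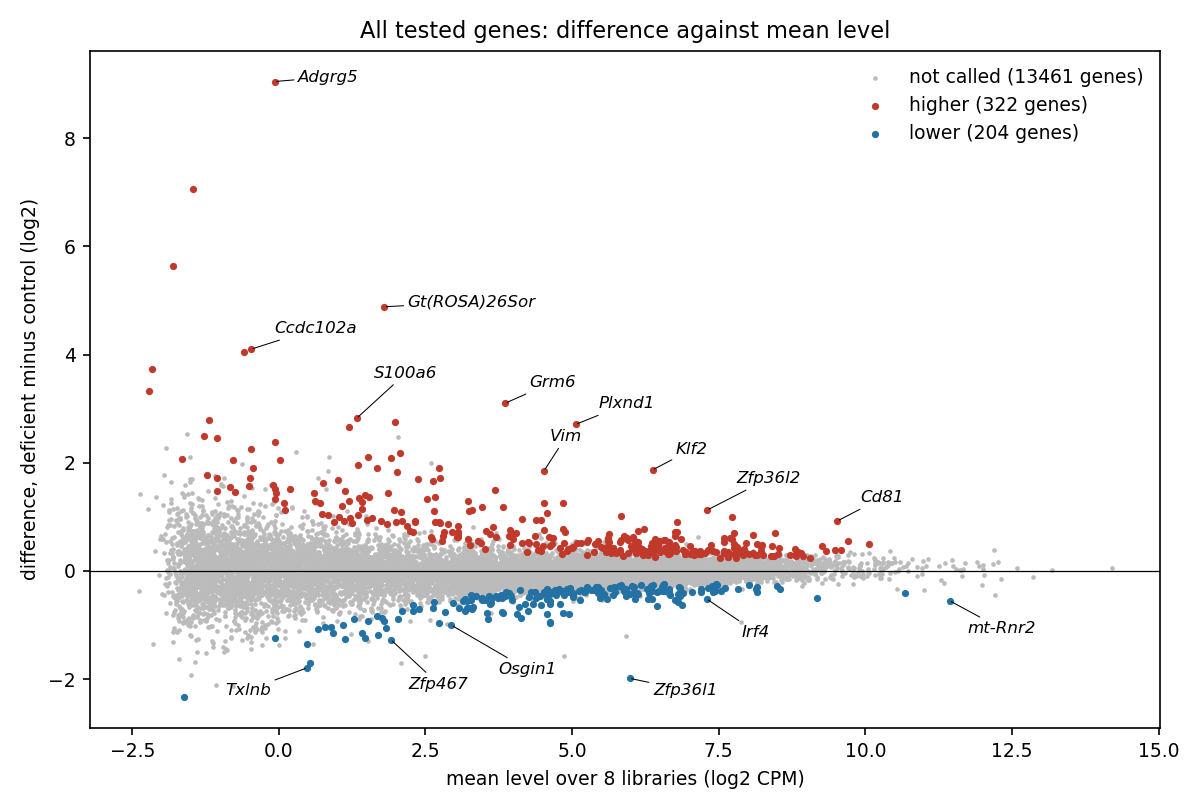
Difference between deficient and control cells (log2, y axis) against the mean level over 8 libraries (log2 CPM, x axis), 1 point per tested gene, with the 322 higher genes in red and the 204 lower genes in blue. Klf2, Plxnd1 and Vim stand out among well expressed genes that rose, and Zfp36l1 among those that fell. The height of Adgrg5, which had 3 counts over the 4 control libraries, depends on how counts near 0 are handled.

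Single libraries moved these counts. Without control replicate 3, 4 or 6 or deficient replicate 8, 202, 187, 206 and 204 genes were higher, and 108, 88, 99 and 95 were lower. Without control replicate 5, 133 were lower. In every one of the 8 fits that left out 1 library, 148 genes were called higher and 61 lower. Genes named below are called in all 8 of these fits unless a library is named beside them. Counts of list members below are to be read beside the 2.3% higher and 1.46% lower of all tested genes. The lists were chosen with earlier results of these data known, so the direction of a list is no independent evidence.

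**Figure D2:**
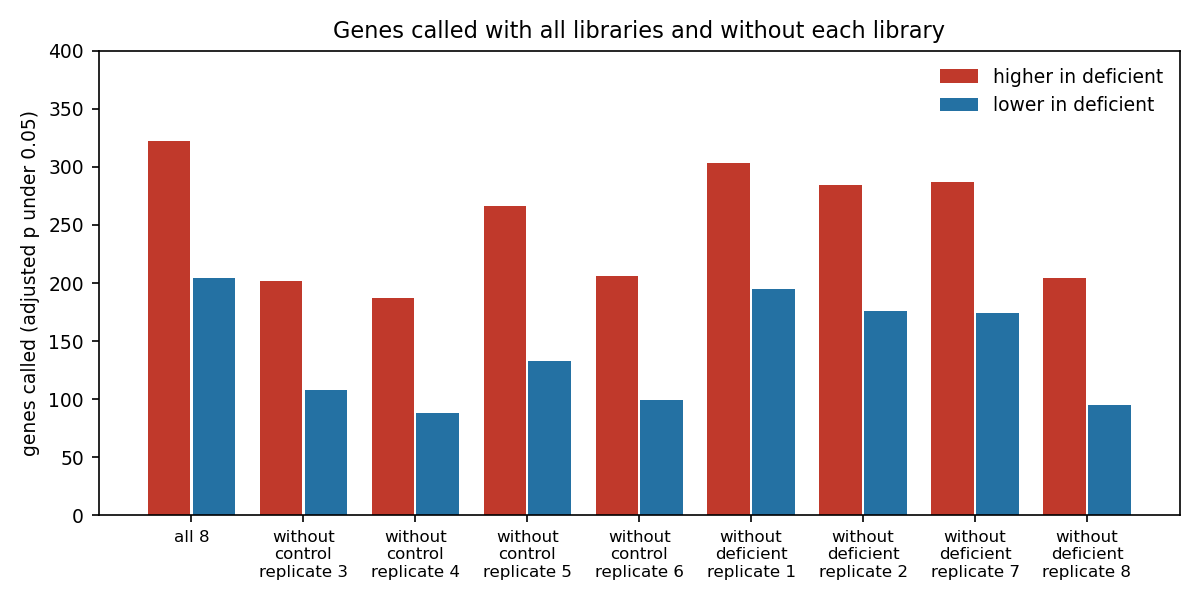
Number of genes called higher (red) and lower (blue) in deficient cells, with all 8 libraries and after leaving out each in turn. The counts fell from 322 and 204 to as few as 187 and 88, both without control replicate 4.

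Within the Zfp36 family, the loss of Zfp36l1 mRNA came with more Zfp36l2 mRNA. Zfp36l2 stood at 214, 310.3, 224 and 199.5 CPM in deficient cells and 132, 107, 115 and 80.6 in controls (log2 1.13, SE 0.15, edgeR adjusted p = 0.00173). All deficient libraries lay above all controls. Zfp36, the founding member, was not called, with 272 to 321 CPM in deficient cells and 245 to 281 in controls (log2 0.14, SE 0.07, edgeR adjusted p = 0.296). Per kilobase of exon, control levels were 76.4 CPM for Zfp36, 42.3 for Zfp36l1 and 30.8 for Zfp36l2. Deficient levels were 84.5, 10.7 and 67.1 in that order. Opposite-strand exons cover 3.6%, 55.9% and 2.97% of their exon bases. Since the strand setting is not given, these levels may not compare between the genes. The list of mRNA decay machinery held CCR4-NOT subunits, decapping enzymes, the exosome and other RNA-binding proteins. Its 66 tested genes had a median log2 difference of −0.01, against −0.00 over all tested genes. Of these, 0 rose and 1 fell (1.52%, against 1.46% of all tested genes). That gene, the deadenylase Parn (log2 −0.24, SE 0.06), lost its call whenever any 1 library was left out, and without deficient replicate 1 a count of 2 members rose.

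**Figure D3:**
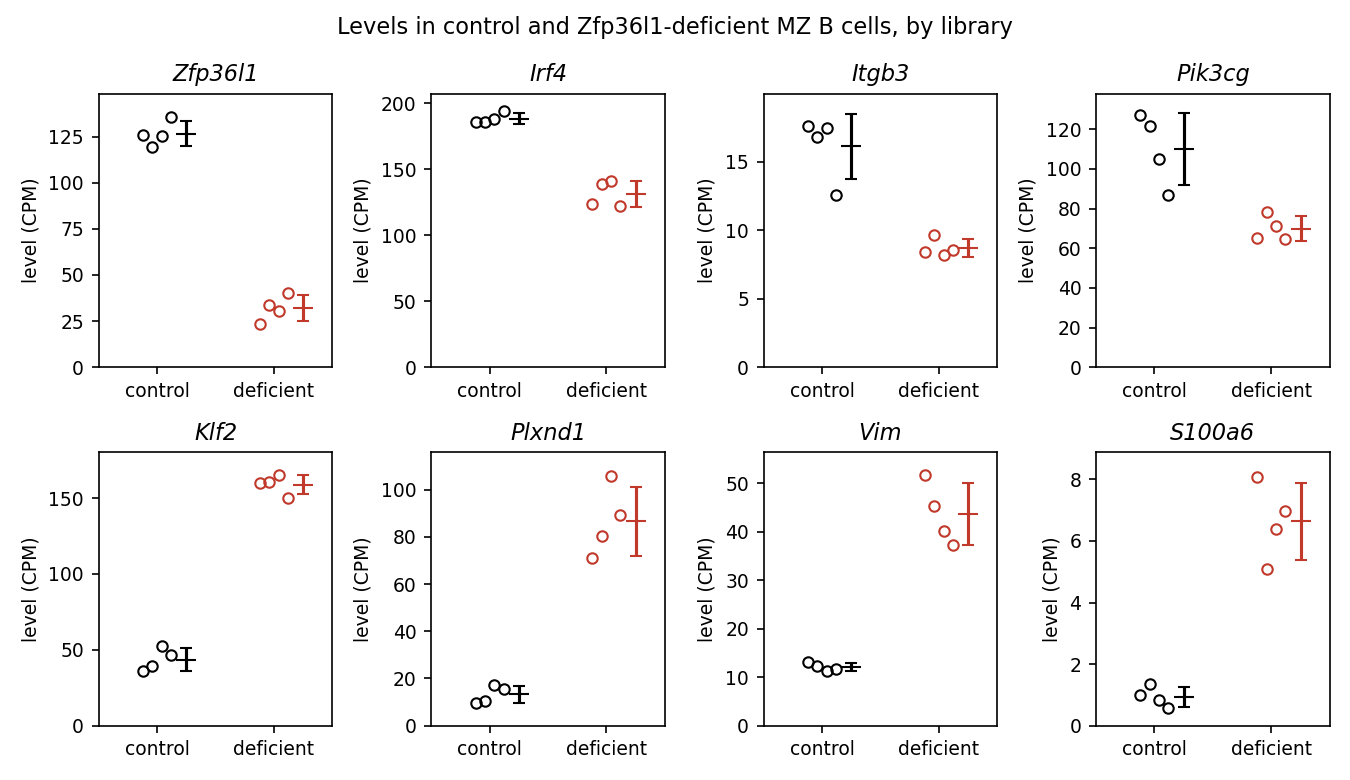
Level (CPM, y axis from 0) of 8 genes in control (black) and deficient (red) libraries, 1 circle per library, with the mean and SD (n = 4 and 4) beside them. Zfp36l1, Irf4, Itgb3 and Pik3cg are lower and Klf2, Plxnd1, Vim and S100a6 higher in every deficient library than in any control.

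Klf2, the transcription factor named above, stood at 160.1, 161, 165 and 150.04 CPM in deficient cells and 35.9, 39.3, 52.4 and 46.6 in controls. The deficient libraries lay within 150.04 to 165 CPM and 3.65-fold above the controls on average (log2 1.87, SE 0.10, edgeR adjusted p = 1.11e-07; exact permutation p = 0.0286, the smallest that 4 against 4 libraries allow). Of the 11 Krüppel-like factors on the list Klf2 alone was called with all libraries, and 2 were called higher without deficient replicate 1. Its relatives Klf3 (log2 0.22, SE 0.09), Klf4 (log2 0.00, SE 0.41) and Klf6 (log2 −0.03, SE 0.07) were not called. Among the interferon regulatory factors, Irf4, which drives plasma cell differentiation, stood at 124, 139, 141 and 122 CPM in deficient cells and 186, 185, 188 and 194 in controls (log2 −0.52, SE 0.07, edgeR adjusted p = 0.000744). Every deficient library was below every control, and Irf4 is itself 1 of the plasma cell markers whose sum was lower. Irf8 went the other way, from 583, 539.8, 523 and 614 to 795, 679, 735 and 703 CPM (log2 0.37, SE 0.08, edgeR adjusted p = 0.0147), but was not called without control replicate 4.

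Of 62 tested B cell transcription factors, 7 rose (11.3%, against 2.3% of all tested genes) and 1 fell (1.61%, against 1.46%). Their median log2 difference was 0.04. Besides Klf2 and Irf8, the risers included 3 factors of activated and effector lymphocytes. Bhlhe40, a repressor found in activated lymphocytes, stood at 32.5, 35.1, 34.04 and 39.8 CPM against 14.9, 15.1, 16.8 and 12.7 (log2 1.25, SE 0.10, edgeR adjusted p = 1.04e-05). Zbtb32, a repressor that limits B cell responses, stood at 4.59, 4.71, 8.18 and 7.39 against 1.60, 2.25, 1.73 and 1.1 CPM (log2 1.90, SE 0.25, edgeR adjusted p = 0.000744). Tbx21, which encodes T-bet, stood at 4.12, 3.19, 4.82 and 4.64 against 2.70, 1.46, 1.07 and 1.32 CPM (log2 1.36, SE 0.27, edgeR adjusted p = 0.013). None of these groups overlapped, though Zbtb32 and Tbx21 remained at a few CPM. Pou2f2, which encodes Oct2, an activator of B cell genes, rose as well, from 212 ± 17.7 to 282 ± 9.09 CPM (mean ± SD, n = 4 and 4; log2 0.41, SE 0.07). Id2, an inhibitor of E proteins (log2 0.39, SE 0.09), was not called without control replicate 3, 4 or 6 or deficient replicate 1, 2 or 8. The pan-B factors Pax5 (log2 0.02, SE 0.16) and Ebf1 (log2 0.13, SE 0.08) and the plasma cell factors Prdm1 (log2 −0.36, SE 0.15) and Xbp1 (log2 −0.01, SE 0.08) were not called. The count of factors that fell was 2 without deficient replicate 7.

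Of 31 tested genes described elsewhere as targets of the Zfp36 family, 8 rose and 0 fell. These are 25.8% and 0%, against 2.3% and 1.46% of all tested genes. This list was put together with earlier results of these data known, so its direction is no independent evidence. The median log2 difference of the list was 0.05, so most members moved little. Beside Klf2 and Irf8, which also belong to it, the risers included regulators of growth and the cell cycle. Myc, a driver of cell growth, stood at 424, 557, 416 and 406 CPM against 255, 248, 268 and 336 in controls (log2 0.70, SE 0.11, edgeR adjusted p = 0.00311). Ccnd3, a D-type cyclin of B cells, stood at 160.4, 120.05, 132 and 126 against 87.9, 88.8, 84.4 and 84.8 CPM (log2 0.64, SE 0.08, edgeR adjusted p = 0.000744). E2f2, which turns on genes of DNA synthesis, stood at 77.8, 68.6, 78.3 and 76.6 against 47.96, 47.1, 50.3 and 53.5 CPM (log2 0.60, SE 0.07, edgeR adjusted p = 0.000352). Deficient libraries were above controls throughout. The survival kinase Pim1 rose from 5.52 ± 0.717 to 10.1 ± 2.39 CPM (log2 0.87, SE 0.17), the phosphatase Dusp1 from 12.5 ± 1.94 to 19.8 ± 0.963 (log2 0.66, SE 0.12) and the cytokine Tgfb1 from 155 ± 3.44 to 197 ± 12.1 (log2 0.35, SE 0.06). The heptamer stood in the longest 3′ UTR of Klf2, Irf8, E2f2, Pim1 and Dusp1 and not in that of Myc, Ccnd3 or Tgfb1. Members at high levels that were not called included Ccnd2 (log2 0.01, SE 0.11), Mcl1 (log2 −0.03, SE 0.07), Bcl2 (log2 0.12, SE 0.12) and Cd69 (log2 0.03, SE 0.09).

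Most genes that place B cells in the spleen were not called. Of 88 tested, 8 rose (9.09%, against 2.3% of all tested genes) and 1 fell (1.14%, against 1.46%). Their median log2 difference was 0.03, and without control replicate 4 or 6 or deficient replicate 8 a count of 5 rose. Among receptors 5 of 24 rose (20.8%) and 0 fell. Cxcr4, the receptor for CXCL12, stood at 13.4, 19.1, 14.6 and 12.3 CPM in deficient cells and 6.58, 5.77, 7.78 and 3.99 in controls (log2 1.30, SE 0.19, edgeR adjusted p = 0.00156). S1pr4, a sphingosine 1-phosphate receptor, stood at 49.2, 41.7, 49.7 and 48.6 against 29.997, 29.8, 33.1 and 34.2 CPM (log2 0.57, SE 0.08, edgeR adjusted p = 0.00156). Both separated the groups. The receptors best known for holding MZ B cells at the sinus, S1pr1 (log2 −0.13, SE 0.07) and S1pr3 (log2 −0.12, SE 0.08), were not called, nor was Cxcr5 (log2 0.05, SE 0.07), which draws cells into the follicle, or Cnr2 (log2 −0.16, SE 0.06). Ccr7, the receptor for T zone chemokines (log2 0.36, SE 0.08), was not called without control replicate 3, 4 or 6, and Gpr34 (log2 0.78, SE 0.18) and Adora2a (log2 0.92, SE 0.22) were each lost in 6 of the 8 fits that left out a library. Gpr34 kept its call only without control replicate 5 or 6, and Adora2a only without deficient replicate 1 or 2. Receptors that rose numbered 2 without control replicate 4 and 3 without control replicate 3 or 6 or deficient replicate 7 or 8, and 1 receptor fell without deficient replicate 1 or 7. None of 22 tested genes of G protein signalling was called.

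Among 18 integrins and ligands, Itgb3, the β3 subunit that pairs with αv, fell. It stood at 8.43, 9.68, 8.20 and 8.53 CPM in deficient cells and 17.6, 16.8, 17.5 and 12.6 in controls (log2 −0.89, SE 0.13, edgeR adjusted p = 0.00141). All deficient libraries lay below all controls. Itgb7 (log2 0.45, SE 0.11), the subunit of gut-homing integrins, was not called without control replicate 5 or 6 or deficient replicate 1, 2 or 8. The integrins that hold MZ B cells in place, Itgb2 (log2 0.23, SE 0.06, edgeR adjusted p = 0.0504), Itgal (log2 −0.21, SE 0.07), Itga4 (log2 0.10, SE 0.11) and Itgb1 (log2 0.23, SE 0.09), were not called. Of 24 genes that activate integrins, 1 rose (4.17%, against 2.3% of all tested genes) and 0 fell. The riser was Rasgrp2, which switches on the GTPase Rap1 and went from 110.3 ± 5.82 to 152 ± 9.85 CPM (log2 0.46, SE 0.07).

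Plexins are receptors that bind semaphorins and change the cytoskeleton and integrin adhesion. Plxnd1 stood at 71.3, 80.3, 106 and 89.3 CPM in deficient cells and 9.81, 10.6, 17.1 and 15.5 in controls, a 6.54-fold rise (log2 2.71, SE 0.17, edgeR adjusted p = 2.26e-06). The lowest deficient library was above 4 times the highest control. Of the 14 tested plexins, semaphorins and neuropilins, 3 rose (21.4%, against 2.3% of all tested genes) and 1 fell (7.14%, against 1.46%). Nrp2, a co-receptor (log2 0.54, SE 0.12), was not called without deficient replicate 2, which left 1 riser. Sema4b (log2 0.26, SE 0.07) was called only without deficient replicate 1 among these fits, and Plxnb2 (log2 −0.50, SE 0.13), which fell, was lost without control replicate 3, 4 or 6 or deficient replicate 7 or 8. Plxnd1 lies 2.89 Mb from Gt(ROSA)26Sor on chromosome 6, where 10 of 191 tested genes within 20 Mb were higher and 7 lower (8.9% called, against 3.76% of all tested genes). Of these, 7 and 3 kept their calls whichever library was left out. Bhlhe40, Il5ra and Cecr2 lie in the same window. The part of the ERT2cre genotype or of linked sequence in these differences was not tested.

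Of 66 genes of the cytoskeleton and nuclear envelope, 11 rose and 3 fell, with a median log2 difference of 0.11. These are 16.7% and 4.55%, against 2.3% and 1.46% of all tested genes. Vim, the intermediate filament vimentin, stood at 51.8, 45.3, 40.2 and 37.3 CPM in deficient cells and 13.2, 12.2, 11.3 and 11.8 in controls (log2 1.85, SE 0.11, edgeR adjusted p = 2e-07). S100a6, a small calcium-binding protein, stood at 8.09, 5.10, 6.397 and 6.98 against 0.989, 1.34, 0.839 and 0.578 CPM (log2 2.82, SE 0.24, edgeR adjusted p = 2e-05). Ahnak, a very large scaffold under the membrane, stood at 6.09, 8.58, 8.76 and 7.81 against 1.04, 1.93, 2.44 and 1.90 CPM (log2 2.09, SE 0.23, edgeR adjusted p = 0.000123). All deficient libraries were above all controls in each case. Smaller rises that kept their call were those of Stmn1, which destabilises microtubules (log2 0.90, SE 0.17), Anxa6, a membrane-binding annexin (log2 0.42, SE 0.08), and Evl, which promotes actin growth (log2 0.39, SE 0.07). Fscn1, which bundles actin, split the deficient libraries, with 19.4, 7.60, 17.9 and 6.95 CPM against 3.45, 2.68, 4.35 and 5.23 in controls (log2 1.72, SE 0.35). Replicates 1 and 7 were high and replicates 2 and 8 closer to the controls, and the call was lost without deficient replicate 1 or control replicate 3, 4 or 5.

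At the nuclear envelope, Sun2, which ties the nucleus to the cytoskeleton, fell from 35.02, 49.2, 22.3 and 33.1 to 17.1, 16.6, 18.8 and 19.02 CPM (log2 −0.96, SE 0.18), with a wide control group and no call without deficient replicate 1. Emd, which encodes emerin (log2 −0.39, SE 0.09), also fell and was lost without control replicate 4 or 5 or deficient replicate 7 or 8. Lmna, which encodes lamin A, rose from a control mean of 0.336 CPM (log2 1.46, SE 0.38), and it kept the call only in the fits that dropped control replicate 5 or deficient replicate 8. Tubb2b (log2 1.052, SE 0.23) was lost without control replicate 3 or deficient replicate 7, S100a10 (log2 0.46, SE 0.11) without control replicate 3, 4 or 6 or deficient replicate 8, and Myo1g (log2 0.30, SE 0.07) without control replicate 3, 4 or 5 or deficient replicate 8. The unconventional myosin Myo1e (log2 −0.33, SE 0.08) fell, with a call kept only without deficient replicate 2 or 7. Risers of the whole list numbered 6 without control replicate 3 and 7 without control replicate 4, and those that fell 1 without control replicate 4 or deficient replicate 8.

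Genes that tell MZ from follicular B cells moved in part. Of 16 tested genes typical of follicular B cells, 7 rose (43.75%, against 2.3% of all tested genes) and 0 fell (median log2 0.21). This list was put together with earlier results of these data known, so its direction is no independent evidence. The risers included Klf2, Cxcr4, Ccr7 and Itgb7, given above, and Cd55 and Fcgrt. Cd55, which protects cells from complement, stood at 251, 228, 268 and 209.5 CPM in deficient cells and 173, 162, 157 and 136 in controls (log2 0.60, SE 0.09, edgeR adjusted p = 0.00164). Fcgrt, the neonatal Fc receptor, stood at 17.8, 14.5, 11.1 and 13.2 against 7.54, 8.20, 4.93 and 5.39 CPM (log2 1.12, SE 0.18, edgeR adjusted p = 0.00355). No library of 1 group crossed into the other for either gene. Fcer2a, which encodes CD23 and was used for the sort, was not called (log2 −0.21, SE 0.32), nor were Foxp1 (log2 0.16, SE 0.08), Btla (log2 −0.03, SE 0.09) or Icosl (log2 −0.08, SE 0.08).

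Of 19 tested genes typical of MZ B cells, 5 rose and 3 fell (median log2 −0.08), so the list did not move one way. These are 26.3% and 15.8%, against 2.3% and 1.46% of all tested genes. Cd1d1, which presents lipids to NKT cells, stood at 868, 898, 1115 and 1200 CPM in deficient cells and 663, 683, 661 and 763 in controls (log2 0.56, SE 0.10, edgeR adjusted p = 0.00742). Ebi3, a subunit of the cytokines IL-27 and IL-35, stood at 8.93, 7.93, 9.13 and 9.63 against 14.2, 13.4, 17.5 and 16.1 CPM (log2 −0.78, SE 0.12, edgeR adjusted p = 0.00222). Both genes separated the groups, in opposite directions. The others that rose were Plxnd1, Tlr3, Asb2 and Hes5, and Dtx1 and Myof fell. Myof (log2 −0.34, SE 0.09) was called only without deficient replicate 7 among the fits that left out a library. Cr2 (log2 −0.26, SE 0.08, edgeR adjusted p = 0.0855), Cd9 (log2 −0.12, SE 0.15) and Mzb1 (log2 0.07, SE 0.09) were not called. For Cr2 this depended on the method. It was called lower when DESeq2 was run on the same libraries (DESeq2 adjusted p = 0.0129) and in the authors' deposited table (DESeq2 adjusted p = 0.0135).

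In the Notch pathway 2 of 33 tested genes rose and 2 fell (median log2 −0.08), against 2.3% and 1.46% of all tested genes, all among transcription factors and targets. Dtx1, a Notch target and regulator at very high levels, stood at 1380, 1411, 1424 and 1459 CPM in deficient cells and 1735, 1751, 1904 and 2109 in controls (log2 −0.40, SE 0.08, edgeR adjusted p = 0.01). Asb2, a ubiquitin ligase subunit that Notch induces, stood at 329.9, 224, 292 and 274 against 176, 188, 149.9 and 173 CPM (log2 0.71, SE 0.10, edgeR adjusted p = 0.0016). Deficient libraries were all below controls for Dtx1 and all above them for Asb2. The other pair was weaker: Hes5, a Notch-induced repressor with 31.8% of its exon bases covered by opposite-strand exons (log2 0.46, SE 0.10), was lost without control replicate 3 or 4 or deficient replicate 8, and Dtx4 (log2 −0.51, SE 0.13) without control replicate 4 or 6 or deficient replicate 1, 7 or 8. Without these libraries the count was 1 riser (control replicate 3 or 4, deficient replicate 8) or 1 faller (control replicate 4 or 6, deficient replicate 8). Notch2 stood at 292 to 348 CPM in deficient cells and 255 to 360.4 in controls and was not called (log2 0.08, SE 0.10), like the targets Hes1 (log2 −0.21, SE 0.09) and Nrarp (log2 0.13, SE 0.47).

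**Figure D4:**
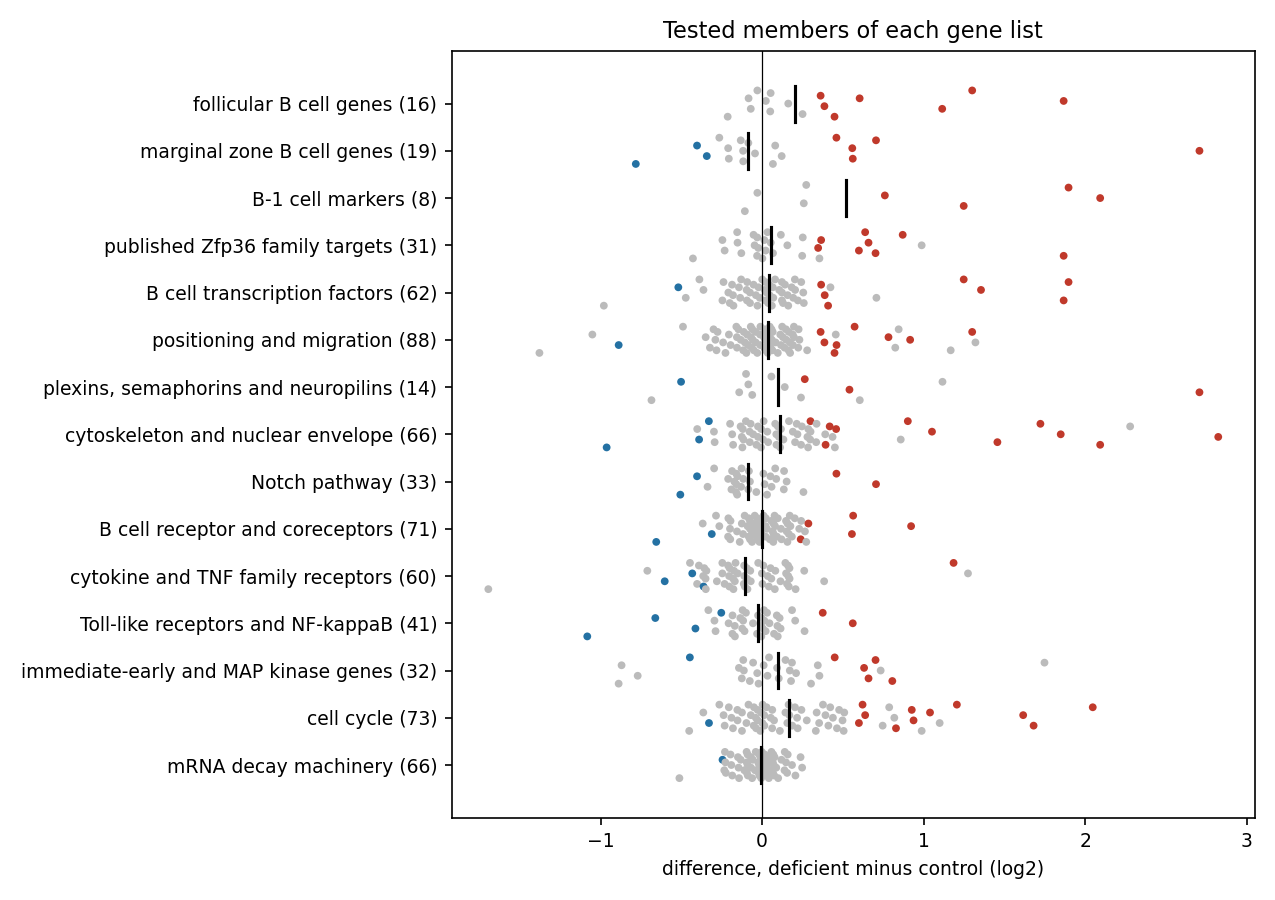
Difference between deficient and control cells (log2, x axis) of each tested member of 15 gene lists, 1 point per gene, with the number tested beside each name, genes called higher in red and lower in blue, and the list's median as a bar. The list medians lie between −0.11 (cytokine receptors) and 0.52 (B-1 cell markers). Follicular B cell genes and B-1 cell markers have called members only to the right, while Toll-like receptor and cytokine receptor genes have more to the left.

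Of 8 tested B-1 cell markers 4 rose (50%, against 2.3% of all tested genes) and 0 fell (median log2 0.52). This list, too, was put together with earlier results known, so its direction is no independent evidence. The risers were Bhlhe40, Zbtb32 and Ahnak, counted above in other lists, and Nid1, a basement membrane protein. Nid1 stood at 30.98, 32.8, 30.7 and 25.3 CPM in deficient cells and 17.9, 19.1, 15.6 and 18.2 in controls (log2 0.76, SE 0.10, edgeR adjusted p = 0.000744). Cd5 (log2 0.27, SE 0.26) and Bhlhe41 (log2 0.26, SE 0.12), other genes of these cells, were not called. Among 71 genes of the B cell receptor, its coreceptors and its signalling, 5 rose and 2 fell. These are 7.04% and 2.82%, against 2.3% and 1.46% of all tested genes. Cd81, a tetraspanin of B cells, stood at 1072, 885, 876 and 1245 CPM against 482, 524, 599 and 546 in controls (log2 0.92, SE 0.11, edgeR adjusted p = 0.000245). The groups were clearly apart, while the receptor subunit Cd79a (log2 0.10, SE 0.09) was not called. Pirb, an inhibitory receptor for MHC class I, rose from 79.4 ± 8.02 to 117 ± 14.3 CPM (log2 0.56, SE 0.10), and the kinase Akt2 from 74.7 ± 3.55 to 109.97 ± 19.98 (log2 0.56, SE 0.11). Pik3cg, the phosphoinositide 3-kinase catalytic subunit that acts behind G protein-coupled receptors, fell from 127, 121, 105 and 86.7 to 65.2, 78.4, 71.3 and 64.7 CPM (log2 −0.65, SE 0.11, edgeR adjusted p = 0.00392). The other falling gene was the adaptor Pik3ap1 (log2 −0.31, SE 0.07), lost without control replicate 4 or deficient replicate 8, which left 1 that fell. The adaptor Grb2 (log2 0.29, SE 0.07) and Plcg2 (log2 0.24, SE 0.06) rose but kept their calls only without control replicate 5 or deficient replicate 1 or 8 (Grb2) and without deficient replicate 1 (Plcg2), and in the fits that dropped control replicate 3, 4 or 6 or deficient replicate 2 or 7 a count of 3 rose.

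Of 60 tested cytokine and TNF family receptors and their signalling genes, 1 rose and 3 fell. These are 1.67% and 5.0%, against 2.3% and 1.46% of all tested genes. The log2 difference was positive in 22 (median −0.11). Ifngr1, the ligand-binding chain of the interferon-γ receptor, stood at 157, 152, 147 and 152 CPM in deficient cells and 194, 194, 201 and 193 in controls (log2 −0.36, SE 0.06, edgeR adjusted p = 0.00351). Il6st, the shared gp130 chain of IL-6 family receptors, stood at 16.8, 26.2, 24.4 and 23.4 against 34.9, 31.5, 33.1 and 38.5 CPM (log2 −0.60, SE 0.12, edgeR adjusted p = 0.0136). Il5ra, the IL-5 receptor chain found on B-1 and activated B cells, rose, with 19.3, 19.3, 25.6 and 23.4 against 5.56, 7.96, 11.7 and 13.3 CPM (log2 1.19, SE 0.22, edgeR adjusted p = 0.0105). The groups were apart for all of these. Tnfaip3, which damps NF-κB signalling (log2 −0.43, SE 0.10), fell but was lost without control replicate 3 or 4 or deficient replicate 8. The BAFF receptor gene Tnfrsf13c (log2 0.16, SE 0.09) and Tnfrsf13b (log2 0.04, SE 0.07) were not called. Without control replicate 6, 2 genes rose.

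Among 41 Toll-like receptor and NF-κB genes, 2 rose (4.88%, against 2.3% of all tested genes) and 4 fell (9.76%, against 1.46%). Tlr3, the endosomal sensor of double-stranded RNA, stood at 105, 105, 129 and 98.4 CPM in deficient cells and 73.4, 74.5, 74.8 and 73.5 in controls (log2 0.56, SE 0.08, edgeR adjusted p = 0.00156). Tlr4, the receptor for bacterial lipopolysaccharide, stood at 33.9, 38.8, 39.1 and 38.6 against 55.4, 50.2, 48.8 and 45.6 CPM (log2 −0.41, SE 0.08, edgeR adjusted p = 0.013), and Ticam2, an adaptor of Tlr4, at 0.906, 1.16, 0.953 and 1.20 against 2.33, 2.13, 2.39 and 2.09 CPM (log2 −1.08, SE 0.22, edgeR adjusted p = 0.0146). Tlr3 was thus higher and the other pair lower in every deficient library. Ly96, the co-receptor of Tlr4 (log2 −0.29, SE 0.09, edgeR adjusted p = 0.0721), was not called, nor were Tlr7 (log2 −0.17, SE 0.09), Tlr9 (log2 −0.29, SE 0.12) or Cd180 (log2 0.03, SE 0.07). Tlr6 (log2 −0.66, SE 0.15) was lost without control replicate 3, 4 or 6 or deficient replicate 2 or 8, where 2 members fell, and Nfkbie (log2 −0.25, SE 0.06) kept its call only without deficient replicate 1. Tnip1 (log2 0.38, SE 0.09) was lost without control replicate 3, 4 or 6 or deficient replicate 8, which left 1 riser.

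Of 73 tested cell cycle genes, 11 rose (15.1%, against 2.3% of all tested genes) and 1 fell (1.37%, against 1.46%). A positive difference was seen in 49 (median log2 0.16). The 24 genes of mitosis had a median of 0.45, with 21 positive and 6 called. Ube2c, an enzyme that marks mitotic proteins for destruction, stood at 5.06, 3.31, 3.21 and 2.61 CPM in deficient cells and 0.962, 0.904, 1.17 and 1.375 in controls (log2 1.68, SE 0.25, edgeR adjusted p = 0.00173). Cdk1, the kinase that starts mitosis, stood at 3.28, 2.77, 3.91 and 2.61 against 1.34, 1.43, 1.42 and 1.27 CPM (log2 1.21, SE 0.21, edgeR adjusted p = 0.00598), and Ccna2, a cyclin of S phase and mitosis, at 5.72, 3.93, 5.02 and 3.68 against 2.57, 2.36, 2.06 and 2.67 (log2 0.93, SE 0.19, edgeR adjusted p = 0.0157). All stayed under 6 CPM, with the deficient libraries above. Mybl2 (log2 0.62, SE 0.13) and Rrm2, which makes deoxynucleotides (log2 0.83, SE 0.16), rose too. E2f8 (log2 2.05, SE 0.47) was lost without control replicate 5 or deficient replicate 1 or 2, Cdc6 (log2 1.62, SE 0.35) without control replicate 3 or deficient replicate 8, and Birc5 (log2 1.04, SE 0.26), Kif11 (log2 0.94, SE 0.24) and Rbl1, which fell (log2 −0.33, SE 0.08), in 6 or 7 of the 8 fits. Top2a (log2 0.34, SE 0.15) and Ccnb1 (log2 0.19, SE 0.24) were not called. Rbl1 kept its call only without deficient replicate 7, where 2 genes fell, Kif11 only there too, and Birc5 only without control replicate 6 or deficient replicate 2.

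Of 32 immediate-early and MAP kinase genes, 5 rose (15.6%, against 2.3% of all tested genes) and 1 fell (3.125%, against 1.46%). The median log2 difference was 0.10, and 4 of the 6 called genes were dual-specificity phosphatases that switch off MAP kinases. Dusp16 stood at 66.03, 81.8, 90.7 and 88.1 CPM in deficient cells and 51.3, 56.5, 50.97 and 52.2 in controls (log2 0.63, SE 0.09, edgeR adjusted p = 0.00156). Dusp6, which acts on ERK, stood at 87.7, 92.4, 89.5 and 80.3 against 109, 119.7, 136 and 112 CPM (log2 −0.45, SE 0.08, edgeR adjusted p = 0.00657). The first was higher and the second lower in every deficient library, so the family did not move one way. Dusp5 (log2 0.81, SE 0.16) rose but was lost without deficient replicate 8, and without deficient replicate 1 a count of 3 genes fell. Jund, an AP-1 subunit, rose (log2 0.45, SE 0.08), with 52.6% of its exon bases covered by opposite-strand exons. Fos (log2 0.36, SE 0.39), Egr1 (log2 −0.03, SE 0.13) and Nr4a1 (log2 −0.14, SE 0.11) were not called.

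In antigen presentation none of 11 tested class II genes was called, with H2-Aa at −0.07 and Cd74 at 0.06 on the log2 scale. In the list of 30, H2-T23 (log2 0.39, SE 0.09), Cd24a (log2 0.33, SE 0.08) and Mr1 (log2 −0.39, SE 0.10) were called beside Cd1d1, but each lost its call in at least 4 of the fits without 1 library. H2-T23 was lost without control replicate 3, 4 or 5 or deficient replicate 8, Cd24a without control replicate 3, 4 or 6 or deficient replicate 2, 7 or 8, and Mr1, the 1 member that fell, without any of the 8. In the fits that dropped control replicate 3, control replicate 4 or deficient replicate 8, Cd1d1 alone rose. In the list of antibody secretion and the unfolded protein response 2 of 38 rose and 2 fell. This is 5.26% each way, against 2.3% and 1.46% of all tested genes. Fkbp11, a folding enzyme of secretory cells, rose from 0.646 ± 0.136 to 1.84 ± 0.373 CPM (log2 1.51, SE 0.28) and Manf, induced by stress of the endoplasmic reticulum, from 47.1 ± 2.36 to 70.4 ± 14.4 (log2 0.58, SE 0.12). Man1b1, which trims sugars of misfolded proteins, fell from 41.03 ± 2.75 to 23.6 ± 6.75 (log2 −0.80, SE 0.16), beside Irf4. Among 40 interferon response genes 2 rose with all libraries (5.0%, against 2.3% of all tested genes) and 0 fell. The risers were Ifi35 (log2 0.46, SE 0.10) and Trim30a (log2 0.26, SE 0.07). Ifi35 was not called without control replicate 3 or 4, and Trim30a lost its call whenever any 1 library was left out.

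GIMAP proteins are GTPases of lymphocyte membranes that bear on survival, encoded in a cluster on chromosome 6. Gimap3 stood at 148, 135, 139.96 and 146 CPM in deficient cells and 94.1, 92.1, 76.5 and 81.9 in controls (log2 0.72, SE 0.08, edgeR adjusted p = 0.00011). Gimap4 stood at 367, 331, 349.96 and 329 against 229, 209.9, 194 and 236 CPM (log2 0.66, SE 0.07, edgeR adjusted p = 0.000175). Both were higher in every deficient library. Gimap7 (log2 0.59, SE 0.12) was lost without control replicate 4 or 6, and the other 5 members ran from −0.13 (Gimap8) to 0.14 (Gimap1) with no call. Of 97 tested metabolic genes 5 rose and 2 fell, against 2.3% and 1.46% of all tested genes, of which Txnrd1 and Osgin1 kept their calls whichever library was left out. Risers numbered 2 without control replicate 3 or 4, 1 without control replicate 6 and 3 without control replicate 5 or deficient replicate 8, and 1 gene fell without control replicate 6 or deficient replicate 8. Txnrd1, a reductase that keeps thioredoxin active, stood at 145, 125, 148 and 134 against 87.4, 88.7, 81.1 and 78.3 CPM (log2 0.72, SE 0.07, edgeR adjusted p = 0.0001), and Osgin1, a gene of the oxidative stress response, at 5.56, 3.81, 5.57 and 6.88 against 12.8, 10.7, 10.1 and 10.04 (log2 −1.002, SE 0.17, edgeR adjusted p = 0.00409). Txnrd1 was higher and Osgin1 lower in all deficient libraries. Among 30 tested survival and apoptosis genes, Pim1 and Cycs, which encodes cytochrome c (log2 0.53, SE 0.10), rose and kept their calls, while Bax (log2 0.30, SE 0.08), which also rose, was called only without deficient replicate 7 among the fits that left out a library.

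Some of the largest differences lay outside these lists. Genes picked by level or by size of difference, here and in the next paragraph, had to have groups that did not overlap. Their separation is therefore no result. Adgrg5, an adhesion G protein-coupled receptor on chromosome 8, stood at 14.5, 11.2, 11.04 and 13.96 CPM in deficient cells (377 to 463 counts) and 0, 0.0875, 0 and 0 in controls, where control replicate 4 alone had counts, 3 of them. It was on in every deficient library and at or near 0 in controls, so no fold is given. Adgrg5 passed the filter on level only through the deficient libraries, so its call is no further support. Grm6, a glutamate receptor, stood at 57.1, 28.6, 30.5 and 58.2 against 5.13, 4.84, 5.16 and 5.12 CPM (log2 3.10, SE 0.23, edgeR adjusted p = 2.26e-05). Its deficient libraries fell into a high pair (replicates 1 and 8) and a low pair, all above the controls. Wdfy1, an endosomal adaptor of Tlr3, stood at 31.5, 46.1, 50.3 and 52.2 against 17.03, 18.3, 20.2 and 19.5 CPM (log2 1.26, SE 0.13, edgeR adjusted p = 0.00011). Tsc22d3, the glucocorticoid-induced leucine zipper, stood at 308, 343, 294 and 270.03 against 167, 170.1, 174 and 100.4 CPM (log2 0.99, SE 0.15, edgeR adjusted p = 0.00227). Both were higher in all deficient libraries, and control replicate 6 was the lowest for Tsc22d3. At high levels, the tropomyosin gene Tpm3 (log2 0.46, SE 0.07) and the tetraspanin gene Tspan15 (log2 0.91, SE 0.14) also rose.

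Several well expressed genes outside the lists fell. Nemp2, a nuclear envelope protein, stood at 76.6, 92.3, 96.6 and 113 CPM in deficient cells and 159.8, 149, 145 and 134 in controls (log2 −0.63, SE 0.10, edgeR adjusted p = 0.00297), and Tmed10, a cargo receptor of the early secretory pathway, at 95.4, 92.7, 85.8 and 90.5 against 129, 133, 143 and 141 (log2 −0.58, SE 0.07, edgeR adjusted p = 0.000175). St14, the membrane protease matriptase, stood at 87.5, 91.3, 87.7 and 91.9 against 132, 125, 131 and 134 CPM (log2 −0.54, SE 0.06, edgeR adjusted p = 0.000176). The groups were apart for all of these by the way they were picked, with narrow spreads for St14. Tmed10 lies 5.23 Mb from Zfp36l1 on chromosome 12, where 0 of 190 tested genes within 20 Mb rose and 7 fell. The share called was 3.68%, all of it lower, against 1.46% lower and 2.3% higher among all tested genes. Of the 7, 3 kept their calls whichever library was left out, including the non-coding neighbour 2310015A10Rik at 0.0128 Mb (log2 −0.80, SE 0.09), which was chosen after its values were seen. At lower levels Antxr2, the capillary morphogenesis receptor that also binds anthrax toxin, fell from 23.9 ± 1.73 to 13.04 ± 2.28 CPM (log2 −0.87, SE 0.12), Cecr2 from 34.6 ± 5.53 to 17.9 ± 4.33 (log2 −0.95, SE 0.16), Zfp467 from 5.85 ± 1.30 to 2.41 ± 0.382 (log2 −1.27, SE 0.20) and Txlnb from 2.55 ± 0.670 to 0.730 ± 0.209 (log2 −1.79, SE 0.28). The mitochondrial ribosomal RNA mt-Rnr2 fell as well, from 3373 ± 346 to 2303 ± 303 CPM (log2 −0.55, SE 0.10), and the other 13 tested mitochondrially encoded genes were not called, none with a positive difference.

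The heptamer shown above was then counted in the longest annotated 3′ UTR of all tested genes. It was found, on the strand of the mRNA, in 98 of 287 higher genes with a UTR (34.1%), 64 of 199 lower genes (32.2%) and 3334 of 11408 tested genes (29.2%). Higher genes had shorter UTRs, with a median of 1050 bases against 1329 over all tested and 1655 among lower genes. Genes were then put in 3 classes of about equal size by UTR length. In the class with the shortest UTRs (up to 804 bases), 27 of 114 higher genes held it (23.7%), against 9.96% of all tested genes there. In the middle class the shares were 37.8% and 27.6%, and in the longest class 45.3% and 50.1%. Higher genes thus lay above all tested genes in the short and middle classes and below them in the long one, and for lower genes the 3 shares were 16.7%, 25.7% and 45.8%. Among genes that rose more than 1.5-fold the share was 24.0% (30 of 125), with a median UTR of 956 bases. These shares are descriptions, with no test. By the number of copies, 2.34% of genes with 0, 3.14% with 1, 2.28% with 2 and 3.07% with 3 or more were higher. The share did not climb steadily with copies. Median UTR length did, at 996, 2026.5, 2699 and 3347 bases in that order, so copies and length cannot be told apart here. Vim, Plxnd1, Cxcr4 and Tsc22d3 hold no such heptamer in their longest annotated UTR, which says only that these letters are not there.

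**Figure D5:**
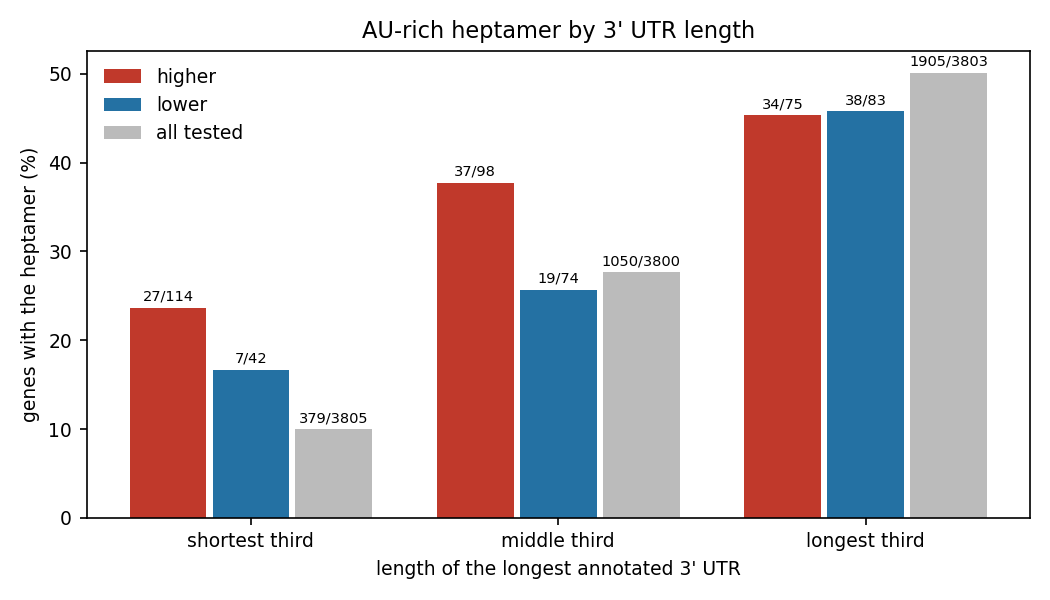
Share of genes (%, y axis from 0) whose longest 3′ UTR holds the heptamer, for higher (red), lower (blue) and all tested genes (grey) in 3 classes of UTR length, with the number of genes above each bar. The red bar is the tallest in the shortest and middle classes (23.7% and 37.8%) but not in the longest, where all tested genes reach 50.1%.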

How the data were processed

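RNA was measured in 12 libraries of sorted B cells, of which the 8 MZ libraries entered the main fit. The submitters' processing notes name build GRCm38 and the tools TopHat2 2.0.12, HTSeq, Trim Galore and DESeq2 1.10.1, with no role or order. The sources used here do not give the strand setting, the counting mode or the annotation release. The authors deposited whole-number counts per gene, used here as the measurement. They also deposited a table of their own comparison with a log2 fold change and an adjusted p-value per gene.

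The counts were tested with edgeR 4.0.16 (R 4.3.3): genes were filtered by group (13987 of 43629 were tested), scaled by TMM factors and compared by the quasi-likelihood test with robust dispersions, with Benjamini-Hochberg adjustment over all tested genes and a threshold of 0.05. Depth ran from 28938453 to 39659730 counts per library, and the biological coefficient of variation was 0.123. Replicate libraries differed by more than sampling noise in all pairs, and 0 pairs were identical. Names, coordinates and 3′ UTRs came from GENCODE M21, which matched 42548 gene IDs.

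Named were 13 genes chosen by name, the 5 called genes with the largest log2 difference in each direction in each of 3 bands of level, the 8 with the largest difference in CPM, and up to 4 called members per role of each list. List members that were not called are given where they show what did not pass. Genes picked by band or by difference in CPM had to have groups that did not overlap. Some genes that qualified are left out of the text. The members, lists and motif were chosen with earlier results of these data known. Alternatives were DESeq2 1.42.0, RLE factors, other filters, all 12 libraries in the fit, a minimum log2 change of 0.26 and leaving out each library.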

Additional observations from a re-analysis of the deposited data

Results flagged for a closer look

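Among 272 groups of 4 libraries, over the genes named by rule, 18 held 1 library far from the other 3. Chance flags about 1 in 20 such groups. In control replicate 6, Steap4 was high at 2.72 CPM (others 2.01 to 2.04), while Itgb3 was low at 12.6 CPM (others 16.8 to 17.6), Tsc22d3 at 100.4 CPM (others 167 to 174) and Dusp1 at 9.63 CPM (others 13.2 to 13.7). In control replicate 5, Ccr7 was high at 131 CPM (others 112 to 115), Ifngr1 at 201 CPM (others 193 to 194) and Rrm2 at 7.99 CPM (others 5.56 to 5.8). In control replicate 4, Adgrg5 was at 0.0875 CPM (others 0) and Grm6 at 4.84 CPM (others 5.12 to 5.16). In control replicate 3, Pirb was low at 67.5 CPM (others 82.4 to 85.1).

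In deficient replicate 1, Arhgef40 was high at 1.16 CPM (others 0.344 to 0.426), as were Cd24a at 603 CPM (others 512 to 517), Txnip at 626 CPM (others 464 to 490.4) and Gimap7 at 137 CPM (others 90.8 to 97.9). Tlr4 was low there at 33.9 CPM (others 38.6 to 39.1). In deficient replicate 2, Myc was high at 557 CPM (others 406 to 424) and S1pr4 low at 41.7 CPM (others 48.6 to 49.7). In deficient replicate 7, Adgre1 was high at 5.92 CPM (others 4.40 to 4.5).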

How the results depend on the processing

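Zfp36l1 and Klf2 kept their direction and call under every alternative run. With DESeq2, 570 genes were higher and 487 lower, and with a minimum log2 change of 0.26, 96 and 23. With all 12 libraries in the fit 344 were lower. Leaving out 1 library gave 187 to 303 higher genes and 88 to 195 lower genes. DESeq2 called 319 of the 322 higher and 203 of the 204 lower genes in the same direction. The authors' deposited table called 568 higher and 484 lower, including 318 and 204 of these. RLE factors and other filters left the counts of all higher and lower genes within 1.5 times, as UTR choice did for the motif share. Counts of list members moved further in 1 case with RLE factors, 7 with no filter and 5 with a stricter filter. The share of higher genes with the motif was 73.5% for ATTTA and 8.71% for TTATTTATT, against 70.01% and 7.79% of all tested genes, since the motifs differ in length. No named gene that was called changed sign, while Cd93, which was not called, ran from 0.05 with all libraries to −0.69 on the log2 scale without deficient replicate 2. Under a minimum change 77 named genes lost their call, and without 1 library 17 to 39 did. No paired analysis was possible because the deficient replicates (1, 2, 7 and 8) and control replicates (3 to 6) share no number. Depth and spread limit genes with a mean under 3 on the log2 CPM scale, where the median SE was 0.30.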

Other observations

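The genes named below were chosen after their values were seen, and those said to rise, fall or be higher were called in every fit that left out 1 library. Among antibody constant regions, Ighg3 stood at 32.2, 29.3, 37.9 and 38.3 CPM in deficient cells and 16.4, 15.8, 14.6 and 19.3 in controls (log2 1.06, SE 0.11, edgeR adjusted p = 0.00011), and Ighg2b at 27.7, 17.3, 22.8 and 21.2 against 12.2, 9.10, 4.91 and 5.47 (log2 1.49, SE 0.25, edgeR adjusted p = 0.00792). Both were higher in every deficient library. Ighm (log2 0.02, SE 0.09), Ighd (log2 0.04, SE 0.12) and Igha (log2 0.05, SE 0.14) were not called, and Ighg1 had a log2 difference of 1.97 with an edgeR adjusted p of 0.0519. These constant regions share sequence, so reads may be split between them.

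Il12a, which pairs with Ebi3 in IL-35, fell like Ebi3. It stood at 16.6, 22.6, 20.9 and 20.2 CPM in deficient cells and 25.96, 29.9, 37.3 and 30.1 in controls (log2 −0.62, SE 0.12, edgeR adjusted p = 0.0118). Spns2, a sphingosine 1-phosphate exporter, rose from 15.2 ± 1.65 to 29.2 ± 4.77 CPM (log2 0.94, SE 0.12). Lgals3, which encodes galectin-3, stood at 9.37, 5.60, 8.96 and 7.29 CPM in deficient cells and 1.76, 2.22, 3.33 and 1.43 in controls (log2 1.83, SE 0.25), and the kinase Sgk1 rose from 2.66 ± 0.814 to 5.81 ± 1.17 (log2 1.13, SE 0.23). Epcam, a cell adhesion molecule, fell from 37.8 ± 5.51 to 22.2 ± 1.65 CPM (log2 −0.77, SE 0.11), and the clock gene Per2 from 24.7 ± 3.15 to 14.8 ± 2.82 (log2 −0.74, SE 0.13).

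Some genes that changed lie side by side. Of 13864 neighbouring pairs of tested genes, both members were higher in 21, both lower in 9 and opposite in 9, including genes that lost their call when 1 library was left out. Cd81 has Trpm5 1219 bases away on chromosome 7, which rose from 1.54 ± 0.422 to 10.6 ± 4.45 CPM (log2 2.76, SE 0.28). Ccdc102a, 5596 bases from Adgrg5 on chromosome 8, was called higher as well. It had 98, 105, 143 and 94 counts in deficient cells and 0, 21, 1 and 5 in controls. Since it passed the filter on level through the deficient libraries, its call is no further support. The authors' deposited table did not call Ccdc102a (log2 0.19, DESeq2 adjusted p = 0.0917). Whether reads of such pairs run from one gene into the next was not tested.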
